A study of Homo sapiens with 47 samples.

Results

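The 26S proteasome is the large protease that degrades ubiquitin-tagged proteins in the cytosol and nucleus. Its constitutive subunit genes were taken as the rows whose gene symbol was 1 of 32 named symbols: PSMA1 to PSMA7, PSMB1 to PSMB7, PSMC1 to PSMC6, PSMD1, PSMD2, PSMD3, PSMD4, PSMD6, PSMD7, PSMD8, PSMD11, PSMD12, PSMD13, PSMD14 and ADRM1. All 32 had a row among the 57507 gene rows of the table, and all 32 passed the filter on low values in every comparison. RNA was sequenced from human lines carrying hypomorphic alleles of NUP58, which encodes a component of the nuclear pore, and from their unedited controls. HAP1, a near-haploid line obtained from a chronic myeloid leukaemia line, gave 32 libraries: 4 of the wild type (WT), 4 of a control that received Cas9 with no guide RNA (EV), and 4 of each of the NUP58-mutated clones C1 to C6. HCT116, an epithelial line from a colorectal carcinoma, gave 15 libraries: 4 of 1 NUP58-mutated clone and 11 of unedited cells (2 WT, 3 and 4 of the Cas9 controls EV1 and EV2, and 2 whose title and genotype labels disagree on whether they are WT or a Cas9 control). Every mutated line is 1 single-cell clone with its RNA collected at the first passage, so a difference between a clone and WT cannot be told apart from a difference between clones that does not depend on NUP58. The 4 samples of a line are experimental replicates of that line, and the p-values below measure only the spread between them, which may be technical.

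The proteasome is built from a barrel-shaped core particle, the 20S, capped by regulatory particles, the 19S. In the core, outer rings of alpha subunits (PSMA genes) gate the entry of substrates, and inner rings of beta subunits (PSMB genes) include the proteolytic sites, which lie in the products of PSMB5, PSMB6 and PSMB7. The 19S has a base, with a ring of ATPases (PSMC genes) that unfold substrates and with subunits that bind ubiquitin (PSMD4, ADRM1) or act as scaffolds (PSMD1, PSMD2), and a lid, in which PSMD14 removes ubiquitin chains. Because the subunits are assembled in fixed proportions, their genes are known to be controlled together. The factor NFE2L1 raises them through antioxidant response elements when proteasome activity is low, and CCAAT boxes and ETS sites are known in the promoters of some of them.

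To show the sequence around these starts, 3 short motifs were searched on both strands of promoter windows from RefSeq (GRCh38.p14), each running from 250 bases before to 50 bases after a transcription start. Of the 32 genes, 27 had a window, and PSMA7, PSMB1, PSMB6, PSMB7 and PSMD4 had none. The core of an ETS site, CCGGAAG, was in 9 of the 27 windows (33.3%) and in 10.7% of all 27305 windows. All 9 of its genes encode 19S subunits (9 of 17 windows of 19S genes and 0 of 10 of core genes). The matches are printed with 8 bases on each side, read along the strand of the gene, with the motif or its reverse complement in capitals. The 6 shown are those of the lid genes, all beginning upstream of the start, with those of PSMD7 and PSMD14 reaching across it.
PSMD6, chr3:64023517-64023539: agacgggaCCGGAAGccgggccg
PSMD7, chr16:74296804-74296826: ctgacgaaCCGGAAGaagaggaa
PSMD8, chr19:38374546-38374568: aaagccaaCTTCCGGtcaccatc
PSMD12, chr17:67366571-67366593: gcgggcaaCTTCCGGtgtgggtg
PSMD13, chr11:236956-236978: gctcggcgCCGGAAGtgagtgag
PSMD14, chr2:161308413-161308435: tagtgaacCCGGAAGtgcttcgc
The ATPase genes PSMC1, PSMC2 and PSMC6 held the other matches to this core.

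The core of the antioxidant response element, TGACNNNGC, was in 6 of the 27 windows (22.2%) and in 13.6% of all windows. It was found in PSMB3, PSMC4, PSMD1, PSMD3, PSMD12 and ADRM1, and the 4 matches upstream of the start are shown because this is the element through which NFE2L1 is known to act.
PSMB3, chr17:38752629-38752653: ctccgtttTGACTTTGCaaccaaac
PSMD3, chr17:39980762-39980786: ccctttgtTGACTCGGCcatcggcc
PSMD12, chr17:67366726-67366750: acaaaaccTGACGCTGCaggctgga
ADRM1, chr20:62302751-62302775: ctcccctaTGACACAGCaacaatag
The CCAAT box was in 15 windows (55.6%) and in 35.7% of all windows. It was divided between the particles (6 of 10 core genes and 9 of 17 19S genes), and the matches in a beta, an alpha and an ATPase gene are given as examples.
PSMB5, chr14:23035372-23035392: tattttacCCAATtttagaag
PSMA3, chr14:58244817-58244837: cagttcagCCAATgagcgggc
PSMC5, chr17:63827413-63827433: ttcaggtcCCAATcctccgct
No match of one motif overlapped a match of another, while in PSMD14 the CCAAT matches of both strands overlapped each other. A match describes the sequence and is not a measured binding site, and a window without a match says nothing about the factor. PSMA4, the most abundant of the genes in HAP1, had none of the 3 motifs in its window.

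The values are FPKM, fragment estimates divided by the length of the transcript and by library size, which allow levels of different genes to be compared per length. Fragment totals are not given, so the depth of a library is known only relative to the others. From the value of 1 fragment it was 0.746 to 1.155 times that of HAP1 WT replicate 1 in HAP1 and 0.76 to 0.971 times in HCT116. NUP58 averaged 41.3 ± 8.07 FPKM in HAP1 WT (SD, n = 4) and 40.3 ± 4.57 in EV, and between 9.8 in C2 and 25.5 in C4 in the clones. In HCT116 the library labelled clone replicate 3 had 44.7 FPKM of NUP58 and the library labelled EV2 replicate 3 had 23.9, both against their labels, so the comparison of the HCT116 clone with its controls is given with and without these 2 libraries. Other HCT116 values include them unless it is said otherwise. Of the markers of the lines' origin, epithelial EPCAM (102 to 272 FPKM), KRT8 and KRT19 were high in every HCT116 library while the intestinal genes LGALS4, VIL1 and CDX1 were below 0.3. The blood-cell genes PTPRC, SPI1, GATA1 and HBG1 were at 0 in every HAP1 library, and EPCAM passed 3 FPKM in HAP1 only in C5. The marker list also held the blood-cell genes CD33, CD34 and MPO, the epithelial genes CDH1 and KRT18, and the mesenchymal genes VIM, ZEB1 and CDH2. Their values are not given here.

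Proteasome subunit genes were transcribed at high and unequal levels in unedited cells. In unedited HAP1 (WT and EV, n = 8) the levels ran from 54.5 ± 9.75 FPKM for PSMD12 to 588 ± 41.4 for PSMA4, and together the 32 genes took 0.587% to 0.979% of all FPKM over the 32 HAP1 libraries. Core subunits were more abundant per length than 19S subunits. The median gene of the beta ring was at 214 FPKM, that of the alpha ring at 217, that of the non-ATPase base at 122.5, that of the lid at 99.25 and that of the ATPase ring at 87.6. PSMA4, PSMB4 and PSMB1 were the highest, with lowest, median and highest libraries at 522, 604 and 636 FPKM for PSMA4, at 232, 307 and 377 for PSMB4 and at 269, 305 and 318 for PSMB1. PSMA4 was above PSMB4 in all 8 libraries, by 0.92 on the log2 scale, while PSMB4 exceeded PSMB1 in only 4 of 8. Few neighbours in the order could be separated. For 6 of the 31 neighbouring pairs the gap exceeded the SD of the gap over libraries, and for the other 25 it did not. Among the catalytic subunits, PSMB6 averaged 214 ± 16.8, PSMB5 206 ± 25.4 and PSMB7 192 ± 23.9 FPKM, and both gaps were within their spread.

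**Figure D1:**
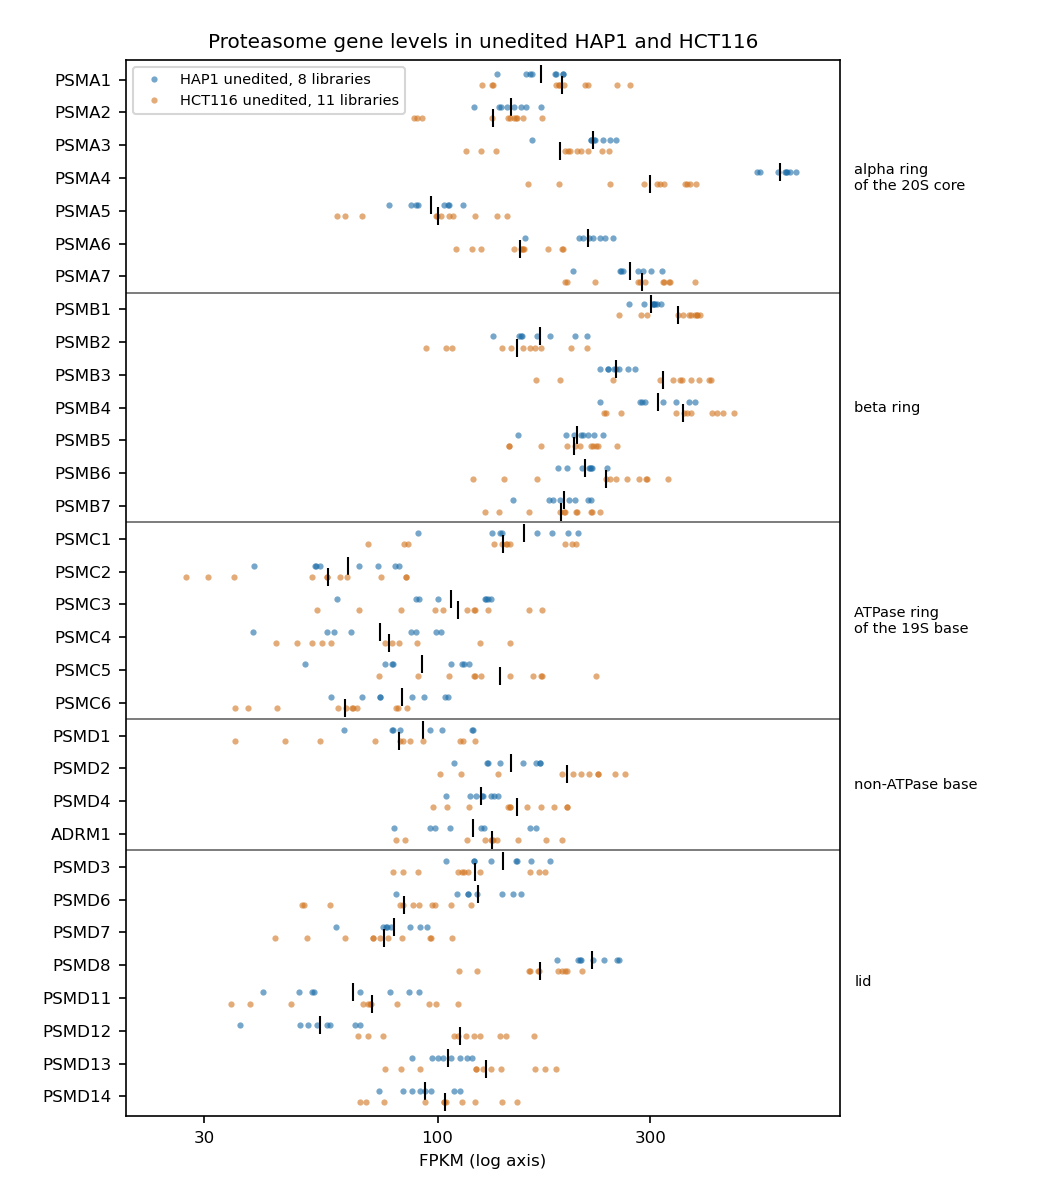
Level of each of the 32 proteasome subunit genes in unedited HAP1 (8 libraries) and unedited HCT116 (11 libraries), in FPKM on a log axis, with a point for each library and a bar at the mean. PSMA4 stands highest in HAP1, at 588 FPKM, and below PSMB4, PSMB1 and PSMB3 in HCT116, at 300, while PSMD12 is lowest in HAP1, at 54.5, and is at 113 in HCT116.

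In unedited HCT116 (n = 11) the beta genes PSMB4 (355 ± 79.9 FPKM), PSMB1 (346 ± 45.8) and PSMB3 (321 ± 84.3) led, and PSMD11 (71.4 ± 24.8), PSMC6 (61.9 ± 17.2) and PSMC2 (56.9, from 27.2 to 85.1 over libraries) were lowest. The medians of the groups were again higher in the core (239 for the beta ring, 188 for the alpha ring) than in the 19S (142 for the non-ATPase base, 108.5 for the lid, 94.35 for the ATPase ring). Only 3 of 31 neighbouring gaps exceeded their SD. The genes took 0.447% to 1.14% of all FPKM over the 15 HCT116 libraries, a wider range than in HAP1.

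Whether mutation of NUP58 changed these genes was asked first by averaging the 6 HAP1 clones and comparing them with WT. No proteasome subunit gene was called: 0 of 32 had a Benjamini-Hochberg adjusted p under 0.05 in limma on log2(FPKM + 1), where 6.6% of all genes tested were called. An unadjusted p under 0.05 was reached by 0 of the 32, beside 2643 of all genes tested. Of the 32 genes, 6 were higher and 26 lower in the clones, with a median log2 fold change of -0.06 beside -0.02 over all 13180 genes tested. In bulk RNA, fewer cells expressing a gene and less RNA of it per cell cannot be told apart. None of the 32 genes had the 24 clone libraries and the 4 WT libraries apart. How many of all genes did was not counted. The values of single genes ran from -0.18 (SE 0.173, 95% interval -0.54 to 0.17, adjusted p = 0.62) for PSMA3, an alpha subunit, to 0.07 (SE 0.139, adjusted p = 0.838) for PSMD2, a scaffold of the base. The medians by role lay close together, at -0.05 in the alpha ring (7 of 7 lower), -0.04 in the beta ring (5 of 7 lower), -0.12 in the ATPase ring (6 of 6 lower), 0.00 in the non-ATPase base (2 of 4 lower) and -0.08 in the lid (6 of 8 lower).

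The catalytic genes illustrate the overlap. PSMB5, whose product carries the chymotrypsin-like site bound by bortezomib, was at 194, 152, 217 and 236 FPKM in WT replicates 1 to 4, a spread wider than the difference of means between WT (200 ± 36.2, n = 4) and clones (185 ± 31.7, n = 24). Its log2 fold change was -0.11 (SE 0.142, adjusted p = 0.737 in limma with Benjamini-Hochberg adjustment, two-sided exact permutation p = 0.467). That permutation treated the 24 clone and 4 WT libraries as exchangeable and ignored which clone and replicate number each came from. PSMB6, with the caspase-like site, averaged 204 ± 25.8 FPKM in the clones and 209 ± 16.2 in WT (log2 fold change -0.04, SE 0.087, limma adjusted p = 0.852). PSMB7, with the trypsin-like site, averaged 171 ± 25.6 and 186 ± 31.4 FPKM (log2 fold change -0.12, SE 0.108, limma adjusted p = 0.581). PSMD14, the deubiquitinase of the lid, averaged 85.1 ± 12.0 in the clones and 92.8 ± 14.6 in WT (log2 fold change -0.12, SE 0.116, limma adjusted p = 0.609). In each of these genes WT replicate 2 was the lowest of the 4 WT libraries.

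The size of the small shift depended on the control. Against EV in place of WT all 32 genes were lower in the clones (median -0.13), with 0 called in limma and 1 at an unadjusted p under 0.05. EV itself was higher than WT in all 32 genes, with a median log2 fold change of 0.08 beside 0.00 over all genes, and none was called, 0 having an unadjusted p under 0.05, where 0.038% of genes were called. With libraries scaled to a fixed total, 31 of the 32 were higher in EV. The values for EV ran from 0.00 for PSMB2 to 0.20 for PSMC3. This difference depended on WT replicate 2, without which 24 of the 32 genes were lower in EV and 8 higher (median -0.046). Between EV and WT libraries of the same number, the median difference was 0.01, 0.35, 0.04 and -0.07 for replicates 1 to 4. When each clone library was set against the WT library of its own replicate number, the median difference was 0.01, 0.02, -0.09 and -0.20 for replicates 1 to 4. The median of -0.06 became -0.225 without WT replicate 2, the library lowest in most of these genes, and 0.01 without WT replicate 3.

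**Figure D2:**
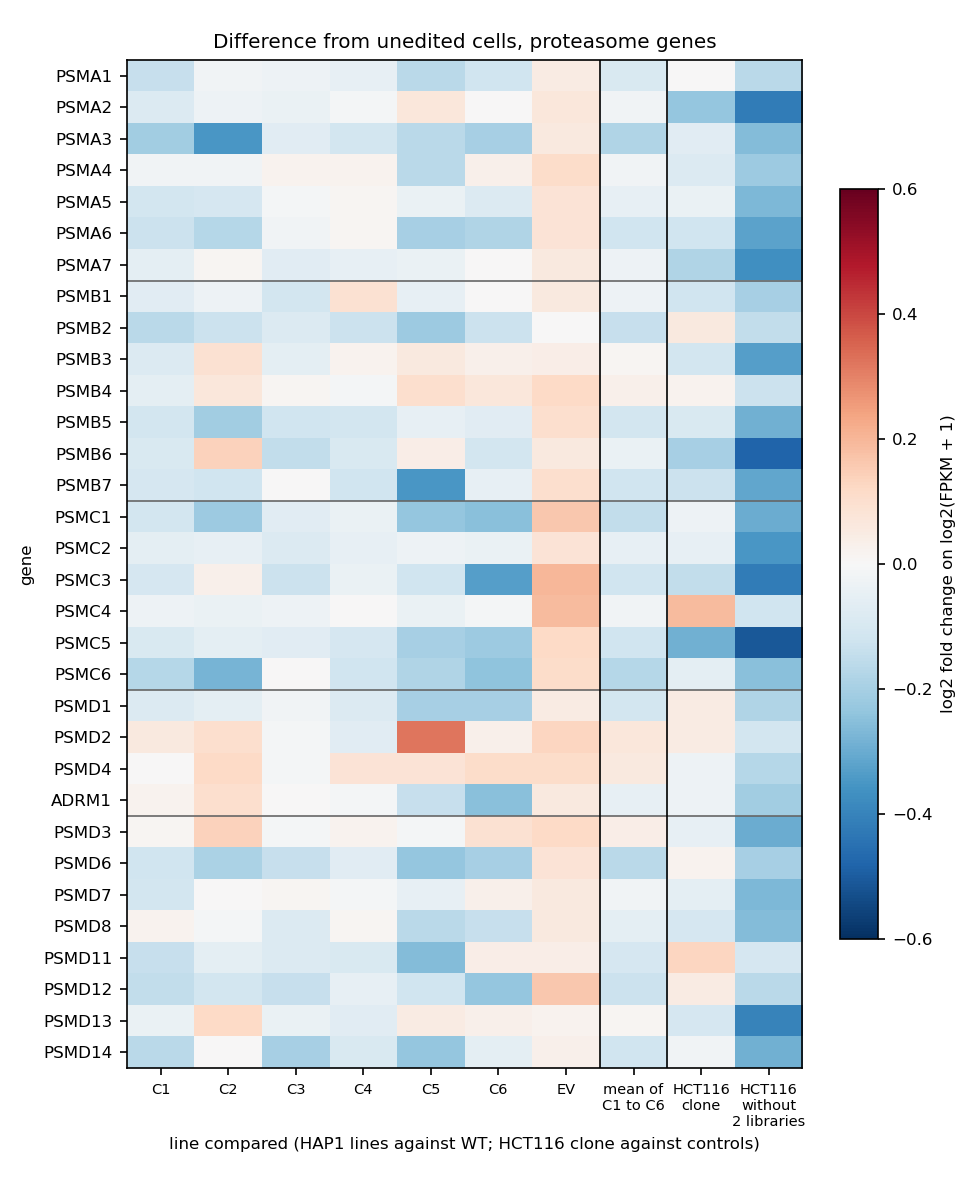
Log2 fold change on log2(FPKM + 1), as colour, of each proteasome subunit gene (rows, grouped by role) in each HAP1 line and in the mean of C1 to C6 against WT, and in the HCT116 clone against unedited controls with and without the 2 libraries that go against their labels (columns). The HAP1 clone columns lie within -0.35 and 0.32, the EV column is at or above 0 throughout, and the last HCT116 column is below 0 in all 32 genes.

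The clones taken singly gave the same count. In limma with Benjamini-Hochberg adjustment, 0 of 32 genes were called in any clone, where of all genes 0.479% were called in C1, 0.732% for C2, 0.0911% for C3, 0.16% for C4, 7.55% for C5 and 11.7% for C6, and 0 had an unadjusted p under 0.05 apart from 1 in C5. All these comparisons share the WT libraries and are not independent of one another. The medians over the 32 genes were between -0.12, for C5, and -0.03, for C2, with C1 at -0.09, C6 at -0.07, and C3 and C4 both at -0.05. With median-ratio scaling that of C2 was 0.00, and the others remained below 0. The range ran from PSMA3 (-0.21) to PSMD2 (0.06) for C1, from PSMA3 (-0.35) to PSMD3 (0.14) for C2, from PSMD14 (-0.20) to PSMA4 (0.02) for C3, from PSMB2 (-0.13) to PSMB1 (0.09) for C4, and for C6 from PSMC3 (-0.33) to PSMD4 (0.11). Replicate numbers paired the samples of C1 to C4 with WT. With the number as a block, limma called 197, 161, 82 and 319 genes of all tested in C1, C2, C3 and C4. Without the block it had called 63, 96, 12 and 21. Of the 32 subunit genes the block fit still called 0. In that limma fit an unadjusted p under 0.05 was reached by 3 of them in C2, 1 in C3 and 0 in C1 and C4. Of all genes tested, it was reached there by 2355 in C1, 2306 in C2, 1945 in C3 and 2533 in C4.

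C5 had the widest range and the only gene at an unadjusted p under 0.05. PSMB7 was at 153, 131, 159 and 135 FPKM in C5 and at 178, 148, 222 and 198 in WT. The lines overlapped, since 2 of the C5 libraries were above the lowest WT library. PSMB7 was lower in C5 within every replicate number, but these numbers were not taken to pair C5 with WT. Over all genes tested, the same-numbered libraries correlated at 0.025 and -0.033 for replicates 1 and 4. The log2 fold change was -0.35 (SE 0.132, 95% interval -0.65 to -0.06, adjusted p = 0.144 in limma; two-sided exact permutation p = 0.0857, where 4 against 4 can reach 0.0286). PSMD2, at the other end of the range in C5, went the other way, at 191, 140, 191 and 176 FPKM in C5 and 129, 109, 166 and 156 in WT. It was higher in C5 within every replicate number, with the same limit on the pairing. Its log2 fold change was 0.32 (SE 0.154, adjusted p = 0.243 in limma; exact permutation p = 0.114). Without WT replicate 2, PSMB7 was called in C5 (log2 fold change -0.46, limma adjusted p = 0.0387). With EV in place of WT it was also called (-0.45, limma adjusted p = 0.0116).

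Other extremes of single clones had libraries that overlapped those of WT. PSMA3 in C2 was at 158, 118, 220 and 204 FPKM against 221, 163, 243 and 252 in WT (log2 fold change -0.35, SE 0.207, limma adjusted p = 0.54). Within every replicate number, which pairs C2 with WT, PSMA3 was lower in C2. PSMC3, an ATPase, was at 91.8, 70.5, 101 and 53.8 FPKM in C6 against 89.6, 59.5, 130 and 128 in WT (log2 fold change -0.33, SE 0.268, limma adjusted p = 0.485). PSMB6 in C2 was the case in which all 4 libraries lay above those of WT, between 222 and 237 FPKM against 186 to 222. Its log2 fold change of 0.14 was not called (limma adjusted p = 0.626, exact permutation p = 0.0286, the smallest this design allows). This case was found by looking through every subunit gene in every clone, a search in which such a p-value can arise by chance. The share of all genes with libraries apart in this way was not counted.

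HCT116 gave no called gene of any kind in the comparison of its clone with the 11 unedited libraries (limma: 0.0% of genes called, 1342 of 12960 at an unadjusted p under 0.05). Of the 32 genes 0 were called, 0 had an unadjusted p under 0.05, 9 were higher and 23 lower, with a median log2 fold change of -0.06 beside 0.00 over all genes. The extremes were both ATPases. PSMC5 was at 94.1, 92.9, 166 and 91.6 FPKM in the 4 libraries labelled clone and at 73.8, 125 and 227 in the lowest, median and highest unedited library (log2 fold change -0.29, SE 0.237, limma adjusted p = 0.679). PSMC4 was at 69.8, 68.7, 170 and 57.4 FPKM in the clone libraries and at 43.4, 76.4 and 146 in the unedited ones (0.19, SE 0.307, limma adjusted p = 0.855). In both genes the library labelled clone replicate 3 was the high one. The controls spread so widely that every clone library of PSMC5 lay inside their range.

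Without the libraries labelled clone replicate 3 and EV2 replicate 3, all 32 genes were lower in the HCT116 clone (median log2 fold change -0.27). Of them limma called 0, where 7.62% of all genes were called. An unadjusted p under 0.05 was reached by 0 of the 32 and by 3349 of 12985 genes tested. The values then ran from -0.51 for PSMC5 (SE 0.255, adjusted p = 0.221 in limma) to -0.10 for PSMD11. The direction was not the same within replicate numbers. In the libraries numbered 1 all 32 genes were higher in the clone than in the controls of that number (median difference 0.39), in those numbered 2 all 32 were lower (-0.37), in those numbered 3, which include both doubtful libraries, all 32 were higher (0.47), and in those numbered 4 all 32 were lower (-0.84). Without the 2 controls of conflicting labels, the median moved from -0.06 to 0.05, and 20 of 32 genes were then higher.

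The clone effect in HAP1 (mean of the 6 clones against WT) minus that in HCT116 was tested directly. Of the 32 genes 0 were called in limma, with 0 at an unadjusted p under 0.05, where 1.8% of all genes were called. The difference ran from -0.23 for PSMD11 to 0.21 for PSMA2, with a median of 0.01 on the log2 scale. Without the 2 HCT116 libraries that go against their labels, the median was 0.18 and 31 of 32 differences were positive, again with 0 called.

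The cell lines themselves differed in some subunits. Between unedited HAP1 (n = 8) and unedited HCT116 (n = 11), limma called 8 of 32 genes (25.0%), where 68.0% of all genes tested were called. Higher in HAP1 were 5 (PSMA4, PSMA6, PSMC6, PSMD6 and PSMD8; 15.6%, beside 39.5% of all genes called higher), and lower were 3 (PSMD12, PSMC5 and PSMB1; 9.38%, beside 28.5% called lower). The share of subunit genes called was thus below the background in each direction, and for 23 of the 32 the fold change was under 0.3 on the log2 scale either way. The median over the 32 genes was -0.02 and that over all genes 0.10. Which genes count as changed moved with the scaling. With median-ratio scaling, which brought the median of all genes from 0.10 to 0.00, 4 genes were called higher and 7 lower, and with scaling to a fixed total (TPM) 6 and 2.

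PSMA4, which encodes an alpha subunit, had the largest difference of the 32. It was at 608, 522, 529 and 607 FPKM in HAP1 WT and at 601, 617, 581 and 636 in EV. In unedited HCT116 the lowest, median and highest libraries were at 159, 315 and 379. Every unedited HAP1 library was above every unedited HCT116 library. The log2 fold change was 1.01 (SE 0.140, 95% interval 0.72 to 1.30, adjusted p = 1.42e-06 in limma), a level in HAP1 2.02 times that in HCT116 on the log2(FPKM + 1) scale. The other alpha genes did not share its size: PSMA6 was 0.51 higher (SE 0.106, limma adjusted p = 0.000198; 217 ± 27.5 FPKM in HAP1 and 153 ± 26.7 in HCT116), and the other 5 were not called. PSMA4 lies at chr15:78540405-78552417 (GENCODE release 44, GRCh38). The 101 tested genes within 5 Mb of it had a median log2 fold change of 1.12, with 7 of 101 below 0, and the median over chromosome 15 was 0.62. HAP1 is known to carry an extra copy of part of chromosome 15 at another place in its genome, and the part of gene dose in the PSMA4 value was not tested.

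PSMD12, a lid subunit, was the reverse case. It was at 49.0, 36.0, 65.2 and 57.3 FPKM in HAP1 WT and at 53.7, 51.1, 66.9 and 56.5 in EV, and at 66.3, 116 and 164 in the lowest, median and highest unedited HCT116 library. The ranges met only at the edge, where the highest EV library lay just above the lowest HCT116 one. The log2 fold change was -1.0 (SE 0.160, 95% interval -1.33 to -0.67, adjusted p = 1.01e-05 in limma; two-sided exact permutation p = 6.62e-05). The gene lies at chr17:67337916-67366605, on the minus strand, and its neighbours within 5 Mb had a median of -0.27. The other called lid genes went the opposite way: PSMD6 was 0.58 higher in HAP1 (SE 0.162, limma adjusted p = 0.00329) and PSMD8 0.40 higher (SE 0.107, limma adjusted p = 0.00224). Among the ATPase genes the called ones also split, with PSMC6 0.44 higher (SE 0.165, limma adjusted p = 0.0217) and PSMC5 lower, at -0.56 (SE 0.189, limma adjusted p = 0.0124). The beta gene PSMB1 was at -0.19 (SE 0.079, limma adjusted p = 0.0401).

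The catalytic subunits did not pass the test between the cell lines. The log2 fold change was 0.04 for PSMB5 (limma adjusted p = 0.763), -0.10 for PSMB6, 0.03 for PSMB7 and -0.12 for the deubiquitinase PSMD14. Over 27 ways of fitting this comparison, PSMA4, PSMD6 and PSMD8 were called in all 27, PSMA6, PSMC5 and PSMD12 in 26, PSMC6 in 25 and PSMB1 in 9. Without the library labelled EV2 replicate 3, 7 were called, PSMB1 being the one lost. With WT libraries alone (4 of HAP1 against 2 of HCT116), 3 genes were called.

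Although the clones did not separate from WT, libraries of the same line differed a good deal, and the subunit genes differed together. Each library was taken as its deviation from the mean of its line, the 11 unedited HCT116 libraries being treated as 1 line, so that differences among HCT116 WT, EV1 and EV2 remain in the HCT116 values. The correlation between 2 proteasome genes over the 32 HAP1 libraries had a median of 0.853 over the 496 pairs, and no pair was below 0 (lowest 0.34, PSMA4 with PSMB6). The same median over pairs of all genes was 0.014. In the 15 HCT116 libraries the medians were 0.936 for the proteasome genes and 0.006 for all genes, and 0.933 for the proteasome genes without the 2 libraries that go against their labels. The points of these correlations share each library's preparation and depth, and they are given as a description. Scaling the libraries by median ratios or to a fixed total left the HAP1 median at 0.89 and 0.875.

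**Figure D3:**
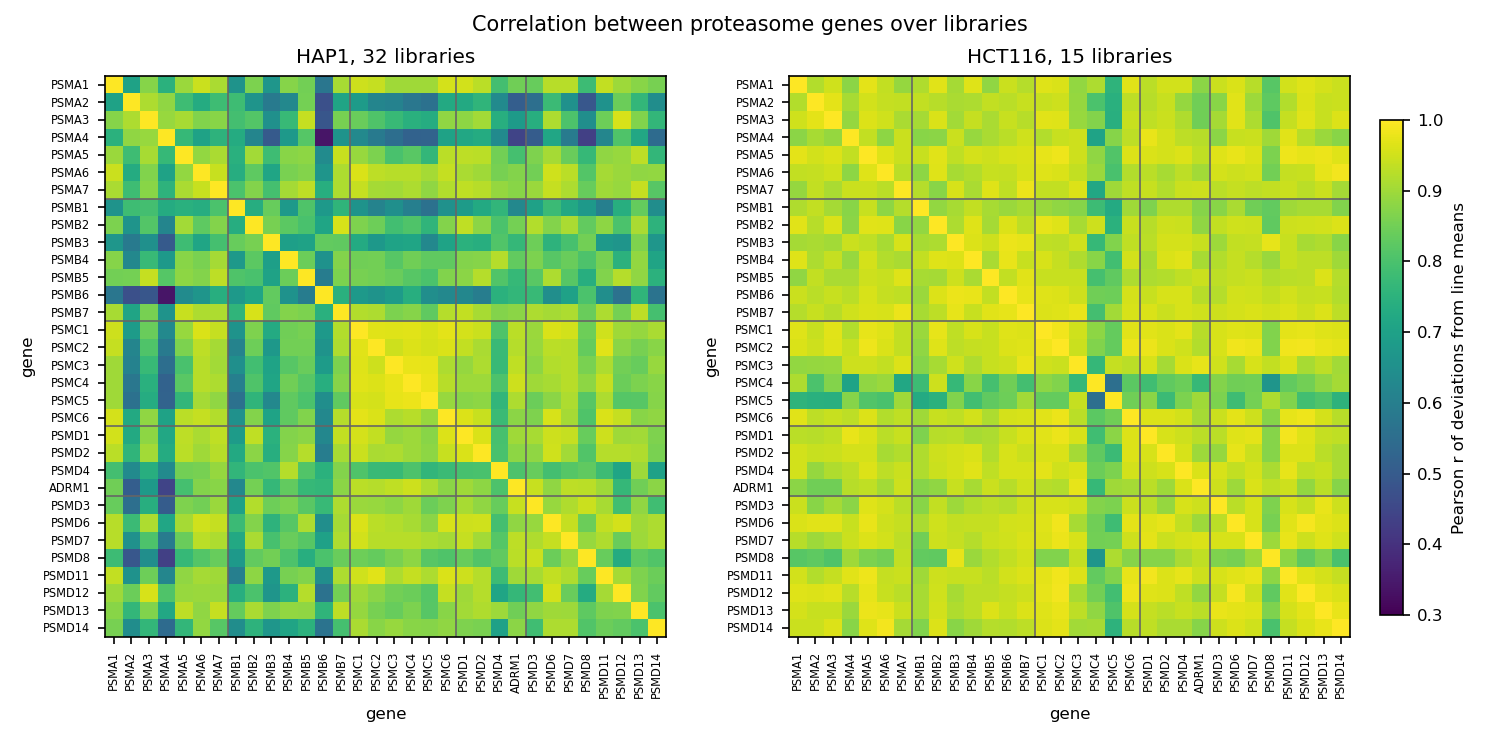
Correlation between each pair of the 32 proteasome subunit genes over libraries, on log2(FPKM + 1) with the mean of each line removed, in HAP1 (32 libraries) and HCT116 (15 libraries, the 11 unedited ones sharing 1 mean), ordered by role. All 496 pairs are positive in HAP1 with a median of 0.853, the ATPase block being the tightest there at 0.962.

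The roles differed in how tightly and how far they moved. ATPase genes had the highest correlations with one another in HAP1 (median 0.962), ahead of the lid (0.889), the alpha ring (0.876), the non-ATPase base (0.843) and the beta ring (0.799). In HCT116 the order was another, with the lid at 0.957 and the ATPase ring at 0.88. The SD within lines on the log2 scale was also largest for ATPase genes in HAP1, with a median of 0.39 (0.35 to 0.467 over the 6 genes) and 0.203 for the beta ring (0.12 for PSMB1 to 0.275). For the 18 genes of the 19S it was 0.347, and for the 14 of the core 0.214. The same held in HCT116 in wider values, 0.442 for the 19S and 0.368 for the core. Over all 32 genes the median within-line SD was 0.238 in HAP1, where that of all genes was 0.249, and 0.418 in HCT116, where that of all genes was 0.271. Without the 2 libraries that go against their labels, the HCT116 values were 0.387 and 0.25. PSMA7 followed the others most closely in HAP1 (correlation 0.971 with the median of the other 31), and PSMA4 (0.702), PSMB6 (0.719) and PSMA2 (0.739) least. In HCT116 the ATPase genes PSMC5 (0.841) and PSMC4 (0.863) followed least.

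**Figure D4:**
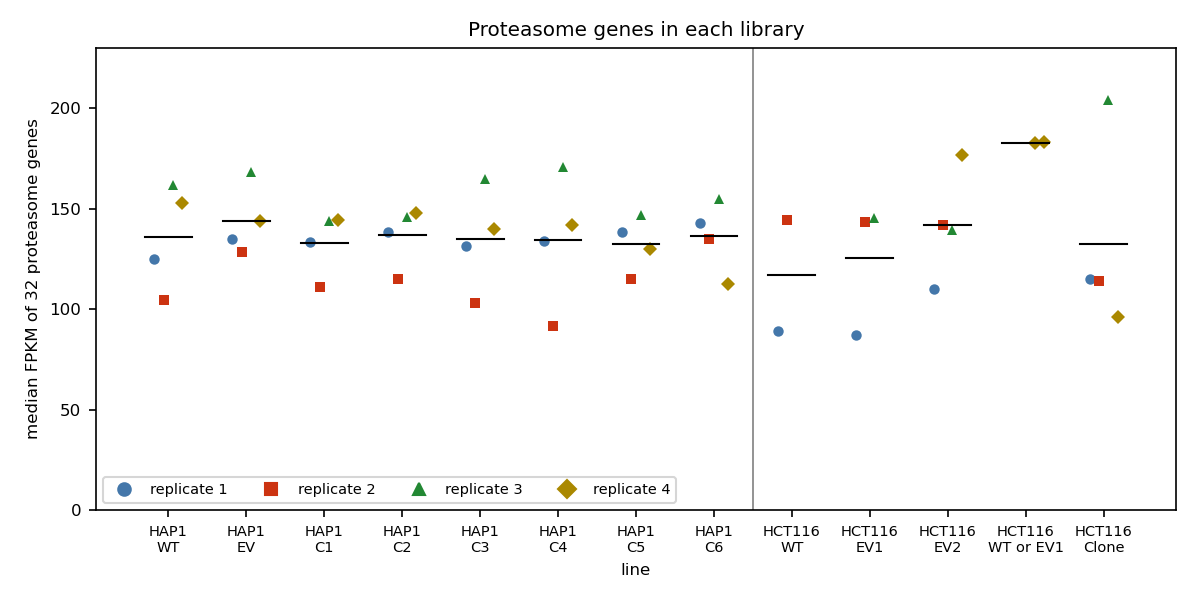
Median FPKM of the 32 proteasome subunit genes in each of the 47 libraries, by line, with colour and shape for the replicate number and a bar at the mean of the line. The means of the HAP1 lines lie between 133 and 144 FPKM, while single HAP1 libraries run from 91.6 to 171, replicate 2 being lowest in every HAP1 line but C6.

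In HAP1 the shared movement followed the replicate number. The median FPKM over the 32 genes averaged 136 ± 26.1 in WT, 144 ± 17.5 in EV and 133 ± 15.7 in C1 (SD, n = 4), and the other 5 clones had means between 133 and 137. In HAP1 all 8 libraries numbered 2 had a median over the 32 genes below the mean of their line (mean deviation -0.27), and all 8 numbered 3 had one above it (0.20), mutated and unedited lines alike. PSMC4 in WT, at 56.4, 38.6, 99.4 and 89.7 FPKM in replicates 1 to 4, shows the size of it in the gene with the largest within-line SD (0.467). PSMB1, with the smallest, was at 318, 269, 290 and 304 in the same libraries. In HCT116 all 4 libraries numbered 1 were low (mean deviation -0.43). In those numbered 2 and 4 the clone library was below its line mean (-0.20 and -0.348), and the controls were above theirs. That clone mean includes the library labelled replicate 3 that goes against its label. Over all genes tested, the clone and the controls of its number correlated at 0.213, -0.072, -0.279 and -0.364 for replicates 1 to 4. The replicate number accounted for 62.5% of the within-line variance of the median subunit gene in HAP1, beside 36.2% for the median of all genes, and for 53.7% beside 28.0% in HCT116, or 56.2% beside 37.0% without those 2 libraries. The labels call the 4 samples experimental replicates and do not say what else same-numbered libraries share.

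ASNS, the asparagine synthetase gene and a standard target of the amino acid response, moved against the subunit genes. It ranged from 32.5 to 451 FPKM over the HAP1 libraries and was high in the libraries numbered 2 (mean deviation 1.38 on the log2 scale) and low in those numbered 3 (-0.90). Over the 32 HAP1 libraries, with line means removed, ASNS and the median of the 32 genes had a Pearson correlation of -0.913 and a Spearman correlation of -0.913, and -0.903 by Pearson without the 2 libraries farthest from the median of ASNS. Each of the 32 genes had a negative correlation with ASNS, from -0.947 for PSMA5 to -0.604 for PSMB6, while the median of all genes was 0.15. In the 15 HCT116 libraries the correlation was -0.617 (Spearman -0.575, and -0.70 without the 2 farthest; -0.624 without the 2 libraries that go against their labels), and again all 32 genes were below 0. ASNS did not differ between the groups compared in HAP1 beyond its spread (137 ± 131 FPKM in the 24 clone libraries and 130 ± 98.4 in WT, limma adjusted p = 0.961). In HCT116 it averaged 61.4 ± 14.9 FPKM in the clone and 168 ± 104 in unedited cells. With ASNS as a covariate the HCT116 comparison had all 32 subunit genes lower (median -0.43). In limma 0 were called, and 4 of the 32 had an unadjusted p under 0.05, beside 1969 of 12960 genes tested. As ASNS was lower in the clone libraries on average, this covariate overlaps with the comparison itself. The same covariate in the mean of 6 HAP1 clones left 27 of 32 genes lower and 5 higher (median -0.07). There limma also called 0 of the 32, where it called 1942 of 13180 genes tested. An unadjusted p under 0.05 was reached by 4 of the 32 and by 3788 of all genes tested. The median of the members also moved with the number of genes above 0 (correlation -0.59 in HAP1 and -0.73 in HCT116), with total FPKM (-0.43 and -0.61) and with relative depth (0.20 and 0.44). The part of these measures, and of the replicate number, in the shared movement was not tested.

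**Figure D5:**
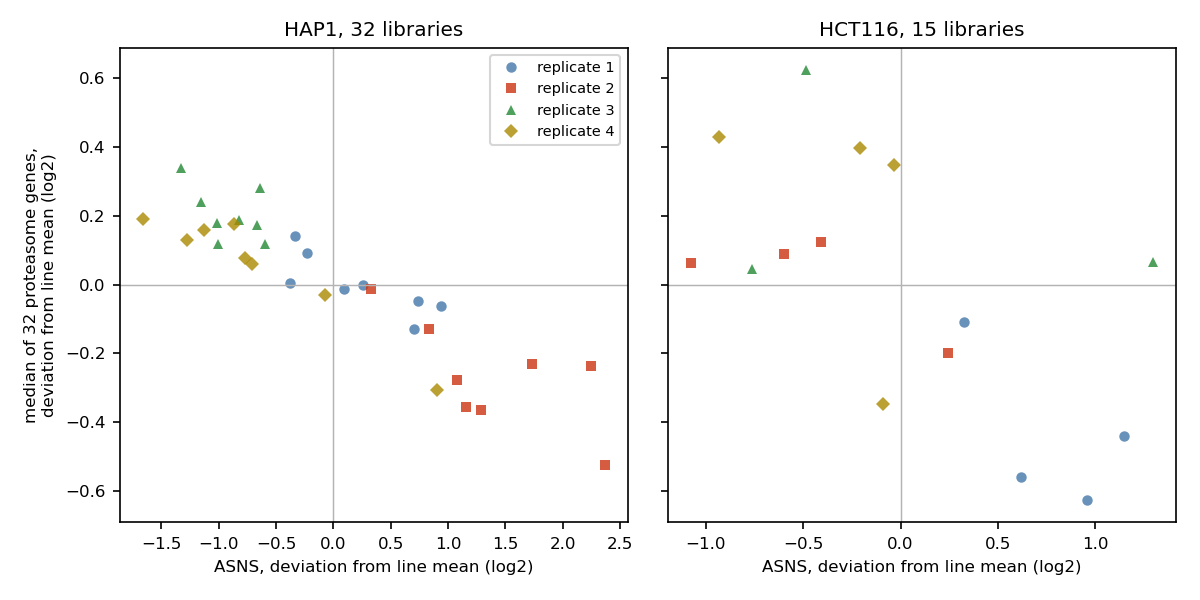
Median deviation of the 32 proteasome subunit genes from the mean of the line against that of ASNS, in log2(FPKM + 1), with a point for each library of HAP1 (32) and HCT116 (15, the 11 unedited ones sharing 1 mean), marked by replicate number. High ASNS goes with low proteasome genes, at a Pearson correlation of -0.913 in HAP1 and -0.617 in HCT116.

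Among all other genes, those whose within-line pattern was most like the median of the 32 in HAP1 were TOMM40, a channel of protein import into mitochondria (correlation 0.979 over 32 libraries), PES1 (0.977), EIF6 (0.976), CCT3 (0.974), EBNA1BP2 (0.973), NOC2L (0.972), YKT6 (0.971), AHSA1 (0.97), MEA1 (0.969) and C11orf98 (0.968). PES1, EIF6, EBNA1BP2 and NOC2L act in ribosome production, CCT3 is a subunit of the chaperonin TRiC and AHSA1 a co-chaperone of HSP90. In HCT116, whose libraries were not used to choose them, the same 10 genes had correlations from 0.785 for EIF6 to 0.981 for AHSA1. The median over all genes tested was -0.177 in HAP1 and -0.017 in HCT116, and the share of genes reaching such correlations was not counted. These genes share each library's preparation with the subunit genes.

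Of 44 further genes of the proteasome system listed by function, all had a row and 41 or 42 passed the filter, depending on the comparison. Limma called 1 of 41 when the 6 HAP1 clones were averaged and compared with WT, beside 6.6% of all genes. It was NFE2L2, which encodes a stress-response factor related to NFE2L1, at 41.0 ± 5.57 FPKM in the clones (n = 24), 32.8 ± 3.49 in WT and 31.4 ± 3.27 in EV (log2 fold change 0.31, SE 0.088, limma adjusted p = 0.0317). Without WT replicate 1 (0.25), 2 (0.28) or 4 (0.34), or without clone C2 (0.26) or C5 (0.30), it was not called. NFE2L1 itself and its processing factors DDI2 and NGLY1 were not called in the clones. Of the 9 assembly chaperones, 8 passed the filter in HAP1 (PSMD5 did not), of which 2 fell in C5 (POMP, which escorts the maturing core, and PSMD10, which helps to build the base) and 2 in C6 (POMP and PSMG4), in clones where 7.55% and 11.7% of all genes were called.

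POMP was at 63.3 FPKM in C5 on average and at 127 in WT (log2 fold change -0.98, limma adjusted p = 0.0049), and fell by 0.81 in C6 (limma adjusted p = 0.0282). Its neighbours within 5 Mb on chromosome 13, where NUP58 also lies, had a median log2 fold change of 0.29 in C5 (16 of 36 below 0) and -0.51 in C6, and the whole of chromosome 13 had a median of -0.57 in C5 and -0.51 in C6. UBQLN2, a shuttle factor for ubiquitinated proteins, fell in C5 by 0.88 and PSMD10 by 0.73, so that 3 of 41 were called there, all lower, where 7.55% of all genes were called. In C6, where 11.7% of all genes were called, the 3 called were POMP, PSMG4 (-1.08, limma adjusted p = 0.00803) and USP14, a deubiquitinase bound to the 19S, which rose by 0.37 (limma adjusted p = 0.0374). The median over the neighbours was -0.82 for PSMD10 and -0.42 for UBQLN2 in C5, where that of all of chromosome X was -0.55, and -0.62 for PSMG4 in C6. The part of local gene dose in these values was not tested.

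Between the cell lines 23 of 42 of these genes were called (12 higher and 11 lower in HAP1), below the 68.0% of all genes. The widest gaps were of genes nearly silent in HAP1. PSMD5, an assembly chaperone of the base, averaged 0.0707 ± 0.0414 FPKM in unedited HAP1 (n = 8) and 30.1 ± 4.27 in unedited HCT116 (n = 11). UBB, a polyubiquitin gene, averaged 2.22 ± 0.872 and 1010 ± 160 FPKM. For neither gene did any library of one line reach the range of the other. The regulators of subunit genes were lower in HAP1, with NFE2L2 at -1.06, NFE2L1 at -0.51, MAFG at -0.74 and MAFK at -0.68 on the log2 scale, while NGLY1 (0.84) and DDI2 (0.68), which process NFE2L1, were higher. VCP, the ATPase that extracts ubiquitinated proteins for the proteasome, was 0.82 higher and PSMB10, a subunit of the immunoproteasome, was at -0.81. The groups of both genes were split. Of the 4 tested genes of VCP and its cofactors, 1 was called higher and 1 lower. Of the 3 tested immunoproteasome and tissue-specific subunits, also 1 was called higher and 1 lower.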

How the data were processed

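The deposited table holds FPKM values per gene for 47 libraries. Per the labels and the paper's methods, the authors trimmed adaptors, aligned reads to GRCh38 with STAR and estimated FPKM with RSEM, without scaling between libraries; tool versions are not given in the sources used here. Total FPKM was 604053 to 721992 per library. No fragment counts were used, so no counting interval is given, and p-values rest on the spread between samples.

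Here, log2(FPKM + 1) was fitted with limma 3.58.1 in R 4.3.3 (trended empirical Bayes, group means, genes averaging 1 FPKM or more over the compared libraries), with Benjamini-Hochberg adjustment over all genes tested and a threshold of 0.05. Fold changes are on that scale and understate low genes. The scripts were tested on simulated data. Exact permutation tests enumerated every arrangement of the libraries with numpy 2.4.6, without regard to clone or replicate number. The Spearman correlations and the t quantiles of the intervals came from scipy 1.17.1. The study used 2-sample tests with q-values; limma was used here because it pools the spread over genes. Correlations used deviations from line means, with all 11 unedited HCT116 libraries as 1 line. Promoter windows came from RefSeq (GRCh38.p14, a later patch of the authors' build) and gene positions from GENCODE release 44.

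Same-numbered libraries of a line and WT deviated together (correlation over 0.1 in every pair) in C1 to C4 and EV, so those numbers were taken to pair the samples, and not in C5, C6 or HCT116. In all, 24 of 28 HAP1 pairs passed. With the pairing, limma called 6 genes in EV where it had called 5.

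The 32 genes and the list of 44 related genes were chosen with earlier results of these data known. The naming rule covered the lowest and highest of the 32 in each comparison (among the called ones, where there were any), the catalytic genes with PSMD14, the 3 highest and 3 lowest levels, NUP58, related genes called in the mean of the 6 clones and the 10 genes most alike. Other genes were named after their values were seen. Reads shared with pseudogenes can bias a level: pseudogene rows held at most 0.555% of a gene's FPKM (PSMC1).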

Additional observations from a re-analysis of the deposited data

Results flagged for a closer look

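Within lines of 4 libraries, 1 library lay far from the other 3 in 11 of 210 values tested (Dixon's test at its 95% limit, which chance passes in about 1 of 20). In HAP1 these were PSMB5 in C1, at 144 FPKM in replicate 2 and 191 to 201 in the others, PSMB5 in C3, at 141 in replicate 2 and 193 to 203 in the others, and PSMA2 in C4, at 107 in replicate 2 and 152 to 158 in the others. In C6 it was replicate 4 that was low, with PSMD11 at 47.5 FPKM (68.3 to 70.6 in the others) and PSMD4 at 112 (135 to 137). The remaining 6 were of 1 library, the one labelled HCT116 clone replicate 3, whose NUP58 level goes against its label. It had 264 FPKM of PSMA3 (143 to 162 in the other clone libraries), 374 of PSMB6 (153 to 165), 97.9 of PSMC2 (39.9 to 45.1), 170 of PSMC4 (57.4 to 69.8), 166 of PSMC5 (91.6 to 94.1) and 189 of PSMD3 (86.3 to 101).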

How the results depend on the processing

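The count of subunit genes called stayed at 0 in every alternative run for the mean of 6 HAP1 clones, C1, C2, C3, C4, C6, EV, the HCT116 clone and the difference of clone effects. In C5 it was 2 with the replicate block (PSMB7 and PSMD2, limma adjusted p = 0.0322 and 0.0394), 1 with EV in place of WT, and 0 to 1 with 1 replicate left out, the 1 being without WT replicate 2. By the rule that every pair pass a correlation of 0.1, the replicate numbers were not taken to pair C5 with WT. The correlations were 0.677 and 0.445 for replicates 2 and 3, and 0.025 and -0.033 for 1 and 4. Between the cell lines the count of 8 became 14 with the replicate block (added after seeing the data), 3 with WT libraries alone and 7 to 12 with 1 library left out. Over all genes, the number called depended on the setting: 492 to 2310 for the mean of 6 clones (870 as reported), 19 to 437 for C1, 34 to 536 for C2, 6 to 82 for C3, 12 to 319 for C4, 500 to 2147 for C5, 823 to 2702 for C6, 5 to 14 for EV, 0 to 1327 for HCT116, 5666 to 12138 between cell lines and 184 to 1011 for the difference of effects. The replicate block gave 1659 genes for the mean of 6 clones, 1312 for C6 and 0 for HCT116, or 1327 without the 2 libraries that go against their labels (the block there was added after seeing the data). It changed no other call among the 32 genes. With 4 libraries a line and SEs of 0.069 to 0.236 for the mean of 6 clones, small shifts were not detectable.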

Other observations

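Among related genes, POMP (correlation 0.931), VCP (0.952), PSME3, the activator of nuclear proteasomes (0.942), and TXNL1, a thioredoxin-like protein bound to the 19S (0.922), moved with the median of the 32 subunit genes over the 32 HAP1 libraries, line means removed. Genes of the interferon-induced proteasome were divided, with PSMB8 at -0.697, PSMB9 at -0.81 and PSME1 at -0.756 but PSMB10 at 0.706 and PSME2 at 0.383. NFE2L1 was at -0.614, and the median over all genes tested was -0.177. Of all genes, those with the most negative correlations in HAP1 included MIB1 (-0.972), KLF9 (-0.971) and FOXO3 (-0.957), which were named after their values were seen. These values are descriptions over libraries that share a preparation and a replicate number.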
